A study of Brassica juncea with 9 samples.

Results

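In leaves of *Brassica juncea* (Indian mustard), 51 transcripts lay in ascending order over the treatments: lowest in unstressed plants, higher in plants given NaCl, and higher again in plants given the same NaCl together with bicarbonate. They were selected on the measured signals themselves, from 43603 array probes. All plants were of genotype NDR 8501, were raised hydroponically and were 5 weeks old at harvest. After a seedling phase in slightly acidic nutrient solution, 3 plants stayed unstressed (control) and 3 received 50 mM NaCl for 4 weeks (salt). The last 3 had their solution buffered with 2.5 mM HCO3- before the same dose of NaCl (alkaline salt). There was no group with bicarbonate alone, so the second rise is that of bicarbonate on top of NaCl. Each array held RNA from the middle, fully expanded leaves of a single plant, per the labels.

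NaCl in the root medium acts on a plant in a rapid osmotic phase, in which water uptake is held back, and in a slower ionic phase, in which sodium and chloride build up in the leaves. Bicarbonate buffers the solution at an alkaline pH, and an alkaline pH lowers the availability of iron, phosphate and several other nutrients and hinders the exclusion of sodium by proton-coupled transport. Saline soils that are also alkaline therefore load both kinds of stress onto a crop. A transcript that rises in 2 steps is a transcript whose level differs between unstressed and saline plants and differs once more when the salinity is alkaline. In a bulk leaf sample, more cells of a type and more RNA per cell cannot be told apart.

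The files do not pair the array's probes with genes, descriptions or sequences, so neither a function nor a role can be stated for any of the 51, and the leaf label could not be checked against leaf markers. The 6 members described singly carry their array identifiers. The array was designed on transcript sequences of *Brassica*, and *B. juncea* is an allotetraploid, so a probe may also bind the transcript of a related gene copy. The 51 probes were designed for 51 different transcript identifiers, and each was printed as a single spot. Whether some of these identifiers stand for the same gene was not tested.

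The members were chosen by the log2 values of the authors' deposited value table and by the scanner's detection flags. A member had to be flagged well above background on all 3 salt and all 3 alkaline salt arrays. Its salt mean had to exceed its control mean by at least 0.5, and its alkaline salt mean its salt mean by at least 0.5. The highest control plant had to lie below the lowest salt plant, and the highest salt plant below the lowest alkaline salt plant. Detection held for 14796 probes. Of these, 329 met both conditions of the salt step and 2109 both conditions of the bicarbonate step. The 51 that met all conditions are 15.5% of the first list, 2.42% of the second and 0.345% of the detected probes. The bicarbonate step was met by a similar share of all detected probes, 2109 of 14796. Nothing about a link between the 2 steps is therefore read from the overlap. With the signs turned and detection asked of the control and salt arrays, 65 probes formed the mirror image, a stepwise fall.

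Some members lie close to these limits. The member with the smallest salt step had 0.503 in the authors' values, and the largest salt step that missed only this limit was 0.486. For the bicarbonate step the corresponding values were 0.502 inside and 0.453 outside. The narrowest gap between the highest control and the lowest salt plant was 0.0025, and it was −0.0107 in the nearest probe outside. Between salt and alkaline salt the narrowest gap was 0.0035, and it was −0.0077 in the nearest probe outside. Another 50 detected probes missed only the size of the salt step and 8 only the size of the bicarbonate step. The overlap of control and salt plants kept out 103 that met every other condition, and the overlap of salt and alkaline salt plants 6. A further 20 probes met both steps but not the detection requirement.

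Signals below are log2 processed intensities from the scanner files, scaled so that 0 is the 75th percentile of the same array. A difference of 1 on this scale is a doubling. Before scaling, the 75th percentile of intensity ran from 893 to 1640 in control arrays, from 417.5 to 1751 in salt arrays and from 880 to 1643 where bicarbonate was added. The mean net signal of negative control spots ran from 970 to 1784, from 225 to 1901 and from 535 to 1723 in the same order. Whether either measure bears on the size of the steps was not tested. The number of arrays limits the precision of every value.

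On the scaled values, the salt step of the 51 members ran from 0.46 to 2.38, with a median of 0.95, or 1.93-fold. The bicarbonate step ran from 0.50 to 4.53, with a median of 0.98, or 1.98-fold. From control to alkaline salt the members rose between 1.11 and 5.88, with a median of 2.08, or 4.22-fold, which was 1.44 with normexp correction. These sizes follow from the rule and are given as a description. Over the 17798 probes tested, the median differences were −0.04, 0.00233 and −0.02. A rise of at least 2 from control to alkaline salt was shown by 30 of the 51, against 3.53% of all tested probes. Both steps were at least 1 in 14 members, of which 7 were above background on all 9 arrays.

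**Figure D1:**
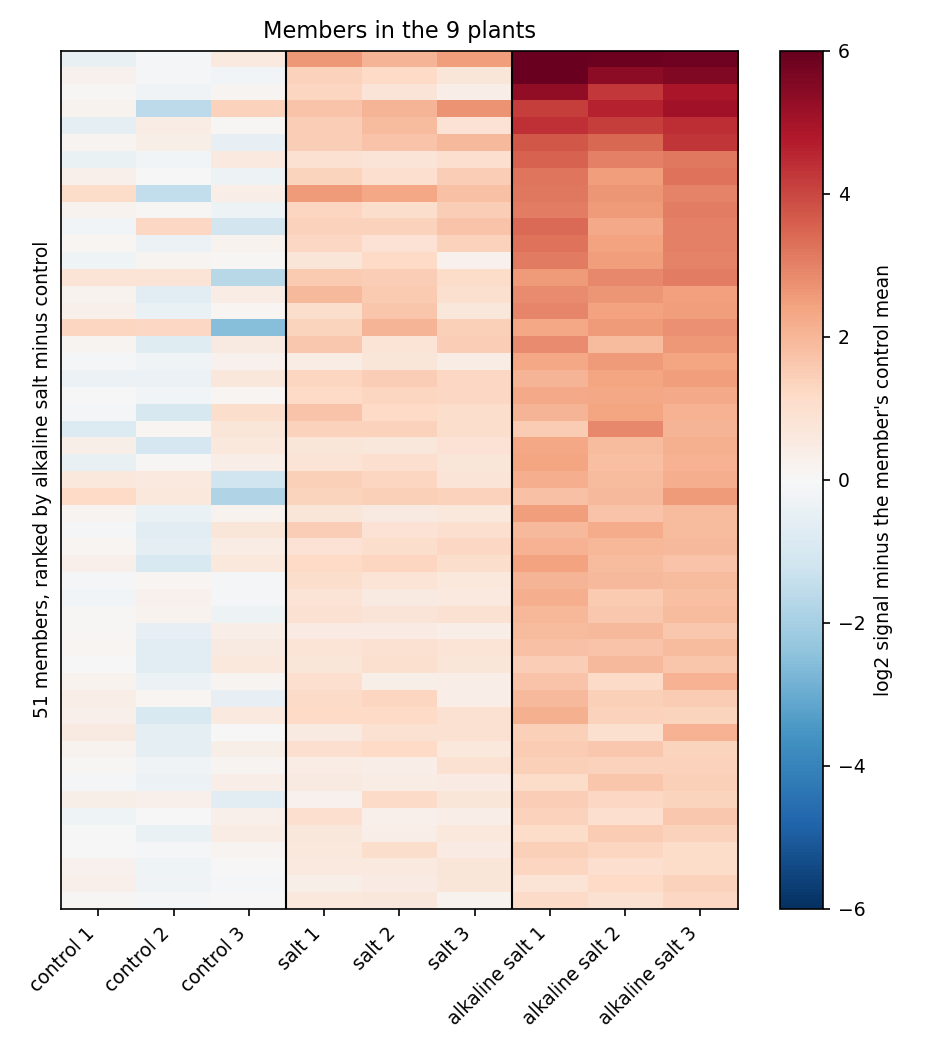
Each row is a member and each column a plant; colour gives the scaled log2 signal minus the member's own control mean, from blue (below) to red (above), and rows are ranked by the difference of alkaline salt and control. The salt columns are pale red throughout and the alkaline salt columns darker, while single blue cells in the columns of control 2 and control 3 mark members with 1 low control plant.

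The rule orders the plants of the groups, so the values by plant are a description of how far apart they lie. Set against each member's own control mean, the median over members was 1.07, 1.03 and 0.88 in salt replicates 1 to 3 and between 1.95 and 2.16 in the alkaline salt replicates. The members' control plants stood at 0.13, −0.20 and 0.17. In the plot of all members by plant, the salt plants lie about midway between the control and the alkaline salt plants. Each of the 3 slides carried 1 array of every group. The median salt step within slides 1 to 3 was 0.90, 1.00 and 0.67, and the median bicarbonate step 1.01, 1.04 and 1.23. Salt lay above control in 50, 51 and 51 members on the 3 slides, and alkaline salt above salt in all 51 on each, as the required gaps between groups nearly fix.

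After the change from the authors' values to the 75th percentile scaling, 48 of the 51 members still had 3 groups that do not overlap. Lowest salt above highest control held for 48 members, where 4.02% of all tested probes show it. Lowest alkaline salt above highest salt held for 51, where 20.6% of all tested probes show it. As the rule asked for these gaps, nothing is read from the counts.

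In 7 members the measured rise from control to alkaline salt was at least 3, and in the 6 of them with a control array above background the bicarbonate step was the larger. A_46_P160939 had scaled log2 signals of 0.16, −0.10 and 0.26 in control replicates 1 to 3, of 1.38, 0.90 and 0.51 in salt and of 5.41, 4.36 and 5.00 in alkaline salt. The lowest salt plant is only just above the highest control plant, whereas every alkaline salt plant is far above both groups. Its salt step was 0.82 and its bicarbonate step 4.00 (SE 0.31 for each, n = 3 per group), which is 1.77-fold and 16.0-fold. Salt thus made up 17.0% of its rise on the log2 scale. With normexp background correction, a model-based subtraction of local background with an offset added, followed by quantile normalisation, its salt step was 0.53.

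A_46_P234149 behaved in a like manner, with −1.55, −1.92 and −1.98 in control, −0.42, −0.61 and −1.10 in salt, and 4.13, 3.57 and 3.74 in alkaline salt plants. The groups do not overlap, and the alkaline salt plants lie apart from the other 6. Its bicarbonate step of 4.53 (SE 0.24, 23.0-fold) was the largest of all members, against 2.15-fold for salt over control. It was well above background on 2 of 3 control arrays, so the salt step rests in part on a signal at background. Normexp correction gave log2 steps of 0.42 for salt and 3.70 for bicarbonate. The probe lies outside the naming rule and was singled out after its values were seen.

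A_46_P313540 was measured at 0.78, 1.00 and 1.74 in control, 2.08, 1.93 and 2.20 in salt, and 4.70, 4.18 and 4.32 in alkaline salt plants. Control replicate 3 was near the salt plants, while the other 2 controls were clearly lower. The salt step was 0.89 and the bicarbonate step 2.33 (SE 0.27 for each), or 1.86-fold and 5.04-fold.

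In 2 other members with a large total rise, both steps were large. A_46_P160344 had −2.73, −2.42 and −1.72 in control, 0.32, −0.26 and 0.22 in salt, and 3.64, 3.59 and 3.54 in alkaline salt plants. The 3 groups are separated by more than the range within any of them. Its salt step was 2.38 (SE 0.28) and its bicarbonate step 3.50, a rise of 5.88 in all. It was above background on 2 of 3 control arrays, and with normexp correction its salt step was 0.99 and its whole rise 4.02. This probe was also singled out after its values were seen.

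A_46_P230134, measured above background on all 9 arrays, had −1.214, −1.005 and −1.845 in control, 0.13, 0.34 and 0.60 in salt, and 2.40, 2.11 and 2.96 in alkaline salt plants. Here too the groups lie well apart. The salt step of 1.71 (SE 0.29, 3.27-fold) was on this scale the largest among members measured in all plants, and the bicarbonate step was 2.13 (4.38-fold). With normexp correction the salt step was 0.94.

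In A_46_P159969 the salt step was the larger on this scale. It had −1.48, −2.35 and −1.28 in control, 0.22, −0.12 and −0.75 in salt, and 1.14, 0.94 and 0.74 in alkaline salt plants. Salt replicate 3 is closer to the controls than the other salt plants are, and the alkaline salt plants are close to each other. The salt step was 1.49 and the bicarbonate step 1.15 (SE 0.34 for each), or 2.81-fold and 2.22-fold, so salt made up 56.3% of the rise. With normexp correction the steps were 0.73 and 0.77, so their order turned, and the rise from control to alkaline salt was 1.497 in place of 2.643.

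**Figure D2:**
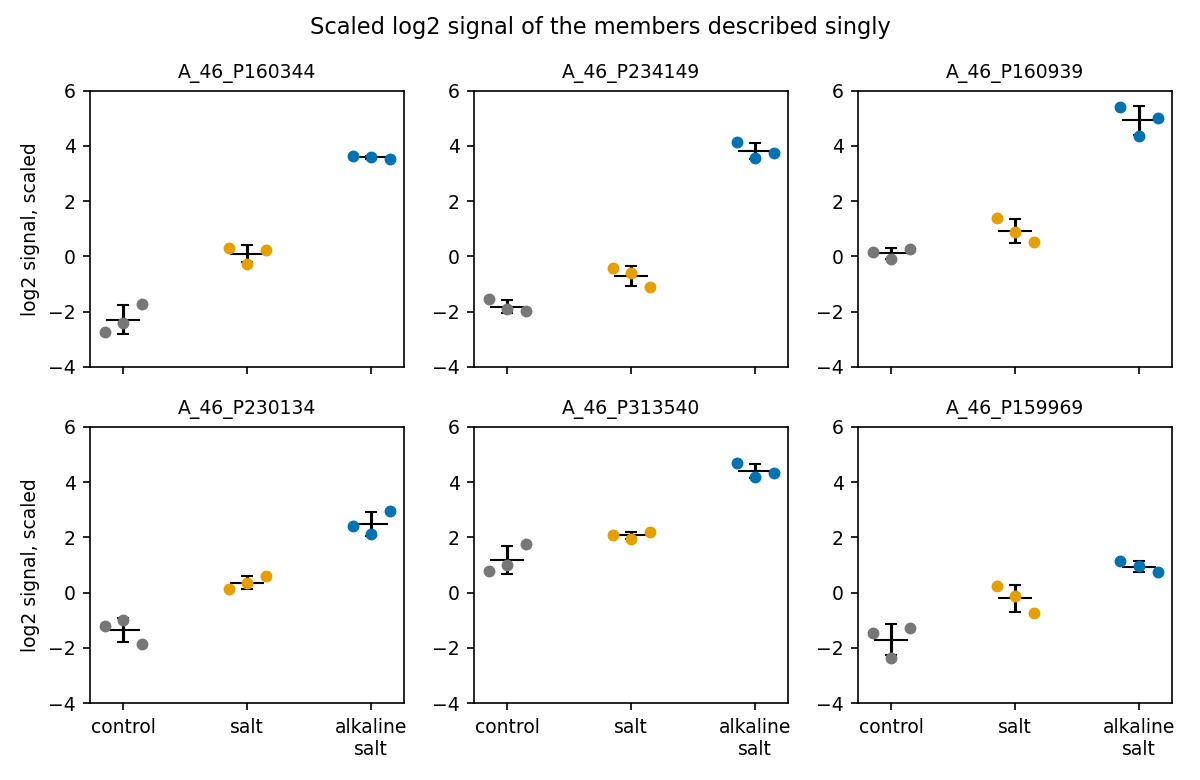
Scaled log2 signal (vertical axis) of the 6 members described singly, by treatment; points are plants in replicate order, horizontal bars the mean and whiskers the SD of 3 plants. Alkaline salt plants lie above salt plants and salt plants above controls in all 6, with the second step much the larger in A_46_P160939 and A_46_P234149 and the first the larger in A_46_P159969, except with normexp correction.

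The measured balance of the 2 steps covered a wide range among the members. The bicarbonate step minus the salt step had quartiles of −0.21 and 0.46. Whether the 2 steps of a member differ was not tested, so the counts and shares below are descriptions. On the measured values, including 3 members whose control level is a bound, the bicarbonate step was the larger in 30 and the salt step in 21. With normexp correction these counts were 40 and 11, and on the 4 other scalings between 29 and 35 members had the larger bicarbonate step. Salt accounted for 17.0% to 75.4% of the rise on the log2 scale, with a median of 46.4%. A share under 25% was found in 3 members, between 25% and 50% in 27, and over 50% in 21. The bicarbonate step was at least 2 times the salt step in 8 members, and the reverse held in 3. Each of these 3 had a single control plant at least 1 below the other 2. Without that plant their salt steps were 0.66, 0.48 and 1.47, beside bicarbonate steps of 0.52, 0.68 and 0.73. The last of these members marks the upper end of the range of shares, and no control array measured it above background.

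Among the 36 members well above background on all 9 arrays, the salt step ran from 0.46 to 1.71 (median 0.84) and the bicarbonate step from 0.50 to 4.00 (median 1.01). The share of salt ran from 17.0% to 68.2%, with a median of 44.2%. The bicarbonate step was the larger in 24 of these 36 members and the salt step in 12. The steps differed by less than 0.25 in 14. The middle of the distribution, from the first to the third quartile, was 0.62 to 1.17 for salt and 0.80 to 1.37 for bicarbonate. The most even of the 36 had steps of 0.78 and 0.72.

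**Figure D3:**
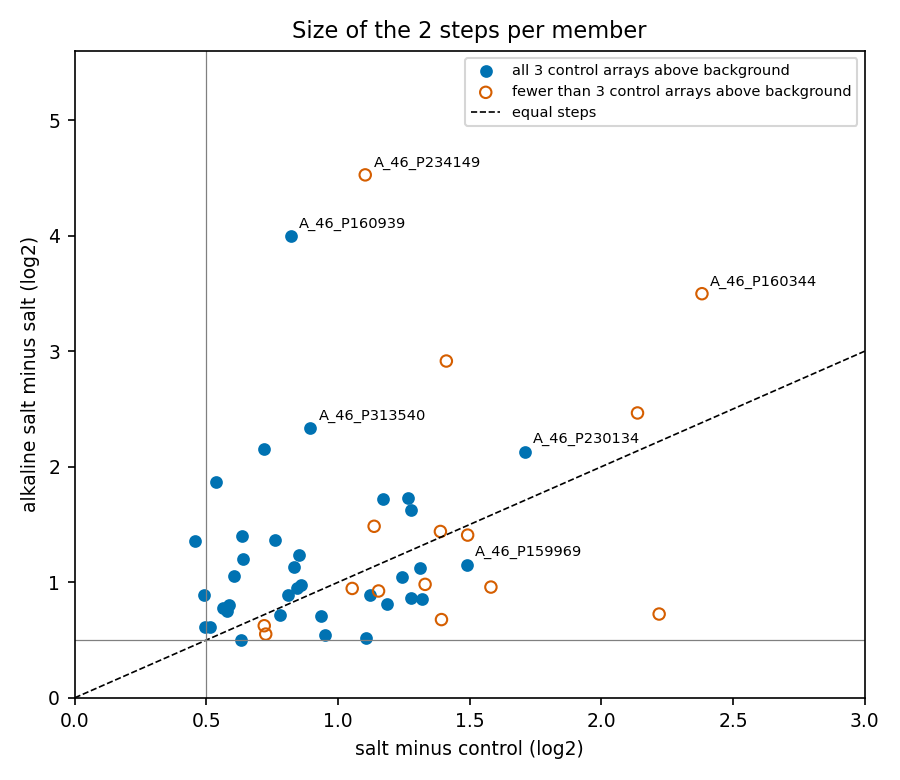
Salt minus control (horizontal axis) against alkaline salt minus salt (vertical axis), both as differences of scaled log2 means, for the 51 members; filled points were above background on all 3 control arrays and open points on fewer, grey lines mark the limit of 0.5 and the dashed line equal steps. Most members lie near the dashed line below 1.5 on both axes, and a few extend upward to a bicarbonate step of 4.53.

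Control signals near background bear on the salt step. Of the 51 members, 36 were above background on all 3 control arrays, 9 on 2, 3 on 1 and 3 on none. For the last 3 a change from control is a bound, with the control level set to the lowest signal detected on each array or the member's own, whichever was higher. On that basis the rise in salt was at least 1.99-fold, 2.15-fold and 1.82-fold, and in alkaline salt at least 11.0-fold, 3.55-fold and 3.50-fold, in the same order of members.

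The control SD exceeded the salt SD in 39 of 51 members and the alkaline salt SD in 39. Over all tested probes this held for 58.4% and 57.9%. The rule asked for detection on salt and alkaline salt arrays only, and a low control reading enlarges the salt step it selects on, so nothing about the control plants is read from these counts. The median SD was 0.45 over control plants, 0.24 over salt plants and 0.26 over alkaline salt plants. Over all tested probes it was 0.32, 0.26 and 0.27. Control replicate 2 was the lowest control plant in 29 members, and control replicate 3 the highest in 28.

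In 9 members a single control plant lay at least 1 below the other 2, which was control replicate 2 in 5 of them and control replicate 3 in 4. Of these 9, 6 had fewer than 3 control arrays above background. In 2 of the 9 no control array was above background, so that their salt steps are bounds. The salt steps of the other 7 ran from 0.76 to 1.58 with all controls and from 0.26 to 0.72 without the low plant, and 3 fell under 0.5. The plainest case is the member with −0.20, −0.23 and −4.03 in control replicates 1 to 3 and −0.18, 0.53 and −0.08 in salt plants. Its salt step was 1.58 with all controls and 0.31 without control replicate 3, so the salt plants lay close to the other 2 controls. With all controls, 48 of the 51 members had a salt step of at least 0.5 on this scale. Whichever control plant was left out, 36 members had such a step. The lowest step so obtained was 0.22, and its sign is set by the rule, which kept all controls below the salt plants.

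The group means were also compared in 1 limma model over all 17798 tested probes, with p-values adjusted by Benjamini-Hochberg and a call at an adjusted p under 0.05. All 51 members were tested. As the rule used the same contrasts, the counts are set beside the share of all probes called higher and nothing is read from them. Between alkaline salt and control, 49 members were called higher, where 8.01% of all tested probes were. Between alkaline salt and salt, 26 members were called higher, where 7.98% of all tested probes were. Between salt and control, only A_46_P160344 was called, where 0.0112% of all tested probes, or 2 probes, were.

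The salt step of the other 50 members was not called by this test. An unadjusted limma p under 0.05 was found for 42 of the 51, and for 17 with array median scaling. In the main fit 2.29% of all tested probes were higher in salt at that level. The selection on the same contrast favours such values. The contrasts share arrays: salt plants enter both steps, so a high salt value lengthens the first step and shortens the second. For A_46_P160344 the salt call was lost with the slide, which equals the replicate number, as a block (limma adjusted p = 0.233). It was also lost in 7 of the 9 fits that leave out an array.

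A second probe of the same transcript gives another reading of the same plants. It existed for 5 of the 51 members, and 4 of these second probes were well enough detected to be tested. Both differences were above 0 in all 4, and both were at least 0.5 in 1. For that transcript the member had steps of 1.12 and 0.89, and its second probe had 0.81 and 0.72. The second probe had −0.20, −1.11 and 0.44 in control, 0.72, 0.15 and 0.69 in salt, and 1.12, 1.47 and 1.14 in alkaline salt plants. Its control replicate 3 lay above salt replicate 2, so it missed the rule by overlap and not by size.

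The other 3 second probes repeated the bicarbonate step more closely than the salt step. A member with steps of 0.59 and 0.80 had a second probe with 0.35 and 0.83. A member with 0.81 and 0.89 had one with 0.33 and 1.26, in which control and salt plants overlapped. The member with the low control replicate 3, with steps of 1.58 and 0.96, had one with 0.14 and 0.55. There control and salt plants overlapped too, and in the authors' values salt and alkaline salt plants as well. On that second probe control replicate 3 read 3.91, beside 4.50 and 4.08 in the other 2 controls, so the low reading of the member was not repeated. The fifth second probe was above background on 2 of 9 arrays only and was not tested.

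Which transcripts form the ascending set depended on single plants. Without control replicate 3 the rule was met by 217 probes, 47 of them among the 51. Without salt replicate 3 it was met by 107, with 45 of the 51, and without control replicate 1 by 92, with 49 of the 51. The fewest members, 42, were retained without control replicate 2, among 62 probes. Leaving out an alkaline salt plant gave 49 to 56. With fewer plants in a group, groups overlap less easily.

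The scale mattered as well. With the 75th percentile scaling the same conditions selected 47 probes, 45 of them members. Normexp correction with quantile normalisation selected 28, of which 26 were members, and for the 51 its median salt step was 0.54. Scaling to the array median selected 7, of which 6 were members, although the median steps of the 51 changed little, to 0.87 and 1.05. The median of an array lay between 3.01 and 4.20 below its 75th percentile on the log2 scale, and both of these extremes were salt arrays. With steps of at least 1 the rule left 14 members.

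**Figure D4:**
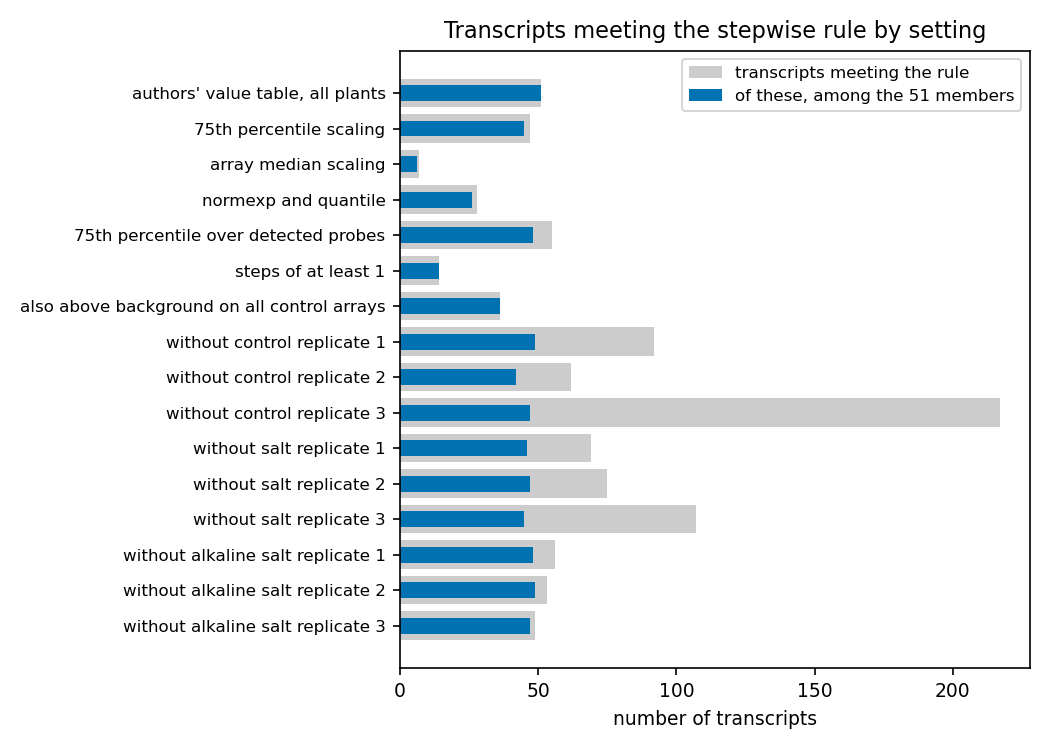
Number of transcripts that met the stepwise rule (grey bars, horizontal axis) and how many of them were among the 51 members (blue bars), for the authors' value table with all plants and for each alternative. The grey bar reaches 217 without control replicate 3 and shrinks to 7 with array median scaling, while leaving out any alkaline salt plant keeps it between 49 and 56.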

How the data were processed

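Leaf RNA of 9 plants was measured on 9 one-colour Cy3 arrays on 3 slides. The deposited scanner files hold spot intensity from Agilent Feature Extraction 10.1.1.1, per the file headers, while the submitters' processing notes name 10.5.1.1. Per the file headers the processed intensity was background-subtracted and detrended within each array. The deposited value table holds log2 values whose making is not given in the sources used here. From the values it matched quantile-normalised processed intensity within 0.0891, and it was not centred.

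The rule was applied to the value table, and a probe counted as detected where at least 0.5 of its spots were flagged. For all other values, control spots were left out and 71 outlier-flagged spot values were set to missing, none of them in a member. Repeated spots were averaged, and log2 intensity was scaled to each array's 75th percentile. Probes detected on all 3 arrays of at least 1 group were fitted with limma 3.58.1 in R 4.3.3, with 3 group means and no covariate. The fit and the rule were tested on simulated data. Normexp (offset 50) used median spot signals. Figures were drawn with matplotlib 3.10.9. Nothing in the labels ties replicate numbers across groups.

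The members and tests were chosen with earlier results of these data known. The naming rule took, without gene names, the 2 members with the largest of each difference among those detected on all 9 arrays, which gave 4 probes. The planned gene lists and markers could not be applied.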

Additional observations from a re-analysis of the deposited data

How the results depend on the processing

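The number of transcripts meeting the rule was 7 with array median scaling, 28 with normexp and quantile normalisation and 14 with steps of at least 1, against 51. It ran from 49 (without alkaline salt replicate 3) to 217 (without control replicate 3) when single plants were left out. Members called between salt and control numbered 1. They were 2 with quantile normalisation and with the authors' value table, and 0 in limma with normexp, with the replicate block, with the percentile over detected probes, without a filter on dim probes, with probes above background on all 9 arrays and with only the compared groups fitted. Leaving out single plants gave 0 to 1. Over all probes fitted, 2 were called higher in the main fit and 5 in each setting with 2 members. In the named settings with 0 members it was 0 to 5, and with single plants left out 0 to 9. The largest number, 24, was called with array median scaling, 1 of them a member. In the 13 settings with 0 calls, 30 to 47 members had an unadjusted p under 0.05, which their selection on this contrast favours. With array median scaling, where 1 member was called, only 17 members had such a p. Members called between alkaline salt and salt numbered 12 with array median scaling and 13 without a filter, against 26, and 17 to 32 with single plants left out. Over all probes fitted, those called higher numbered 820, 682, 1420 and 719 to 1533 in the same order. Between alkaline salt and control the count was 49, with 38 under array median scaling and 44 to 51 with single plants left out. Over all probes fitted it was 1425, 777 and 786 to 1726 in the same order. Nothing about the members is read from these counts. Apart from fewer plants or probes and the stricter limit, the cause of the changes between settings was not tested. For plants sharing a replicate number, and thus a slide, deviations from the group means correlated at −0.144 to 0.29. The correlation passed 0.1 in 1 of 9 pairs. With 3 plants per group these values cannot decide whether the numbers pair the plants. With the replicate block, 24 and 49 members were called in the alkaline salt contrasts, where 1195 and 1273 of all probes fitted were called higher. No difference of the 6 members described singly changed direction in any alternative run. The gaps between groups that the rule required, and the choice of members with large differences, nearly fix this outcome. The percentile over detected probes and the comparison of the steps across scalings were chosen after seeing the data. Dim control signals limit the salt step of 15 members.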
